A study of Mus musculus with 8 samples.

Results

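The 37 genes described here are macrophage genes, among them growth factor and Fc receptors, scavenger receptors, the subunits of complement C1q and the genes of antigen presentation. They were listed by name, and each was read from the probe set that names it alone and has the highest mean over the 8 arrays of the study. All 37 had such a probe set, out of 18193 genes measured in this way. The samples were small intestine of BALB/c mice, 6 to 9 days old, and gave 3 arrays of ICC-DMP cells, 3 of ICC-MY cells and 2 of whole tunica muscularis, which is the gut's muscle coat. ICC is the usual short form of interstitial cells of Cajal, which pace gut movements, while DMP and MY name the deep muscular plexus and the myenteric plexus in which they lie. The labels themselves give only the abbreviations. The labels name no treatment, transgene or mutation in any group. The sources used here do not give the isolation method, the number of animals per sample or their sex. The titles call the samples biological replicates without saying what separates them, so each p-value is measured against the spread of these samples, which may be technical. About 50 ng of RNA per sample went through 2 rounds of amplification.

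Macrophages of the muscle coat, called muscularis macrophages, lie between the muscle layers and around the myenteric plexus, close to interstitial cells of Cajal and enteric neurons. They depend on signalling through the receptor CSF1R, take up dying cells and debris, and exchange signals with enteric neurons, among them the growth factors CSF1 and BMP2. All samples here are bulk RNA, in which fewer cells of a type and less RNA per cell cannot be told apart.

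All values are log2 expression values, and a difference of 1 on this scale is a 2-fold difference. Array medians lay between 4.18 and 4.31, and the lower quartile of each array between 3.10 and 3.23. The arrays ICC-MY 1 and tunica muscularis 1 spread less than the other 6 (SD over probe sets 1.98 and 2.06, against 2.22 to 2.31). Kit, the receptor that marks ICC, and Ano1, their chloride channel gene, were higher in both classes. Ano1 was higher by 2.09 in ICC-DMP (limma, adjusted p = 0.0305) and by 2.03 in ICC-MY (adjusted p = 0.0287). The first call was lost without any 1 of the ICC-DMP arrays (adjusted p from 0.0822 to 0.0995). The second was lost without any 1 of those, ICC-MY 2 or ICC-MY 3 (adjusted p from 0.0512 to 0.0877). Without tunica muscularis 1 the differences of Ano1 were 1.35 and 1.29. Kit was higher than in the muscle coat by 3.27 (SE 0.50) in ICC-DMP and by 3.92 (SE 0.50) in ICC-MY. Smooth muscle markers were lower for 3 of 6 genes in ICC-DMP (Des, Myocd and Cnn1) and 5 of 6 in ICC-MY (Myocd, Cnn1 and Myh11 by most). Endothelial markers were lower for 2 of 5 in ICC-DMP (Vwf and Kdr) and 1 of 5 in ICC-MY (Vwf). The ICC-DMP calls of Myocd and Kdr were lost without single ICC-DMP arrays (limma, adjusted p from 0.0776 to 0.118). Without tunica muscularis 2 the ICC-DMP differences of Des, Myocd and Kdr were -1.73, -0.89 and -1.52, against -1.92, -1.30 and -1.67 with all arrays. Without tunica muscularis 1 that of Kdr was -1.81. Markers of neurons (6 of 6, led by Vip, Snap25 and Tac1) and mesothelium (4 of 4, led by Upk3b, Msln and Krt19) were lower in both classes, with median differences of -5.92 and -5.72 in ICC-DMP and -6.04 and -5.96 in ICC-MY. All 10 immediate early genes on a list of the response to tissue dissociation were higher in both classes, led by Fosb, Jun and Atf3 (medians 5.05 and 3.61). Their part in the differences of macrophage genes was not tested.

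The muscle coat carried most of the macrophage set above the lower quartile of its arrays. Csf1r read 10.15 and 11.49 there, Ctss 6.70 and 9.00, and Mrc1 6.84 and 7.84. The exception was Itgam, which encodes the integrin chain CD11b and is often used to define macrophages. It lay between 2.52 and 2.68 on all 8 arrays and was the only member below the lower quartile on both tissue arrays. In ICC-DMP between 18.9% and 32.4% of the 37 members lay below the lower quartile of their array, and in ICC-MY between 16.2% and 24.3%, beside 16.5% to 16.9% of all 18193 genes on these arrays. In tissue it was 2.7% of members on each array, beside 14.5% and 15.0% of all genes. Besides Itgam, Cd163, C1qb and Cybb did so on all 6 arrays of isolated cells.

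Relative to the muscle coat, ICC-DMP had 19 of the 37 macrophage genes lower at an adjusted p under 0.05, against 7.32% of all genes tested (11% in either direction). No member was higher by limma, also at an unadjusted p under 0.05, where 7.98% of all genes were (3.72% at an adjusted p). In ICC-MY, 16 of 37 were lower, against 9.78% of all genes (13.8% in either direction), and again 0 were higher, adjusted or not, against 4.05% and 8.28%. The median difference over the 37 genes was -0.92 in ICC-DMP and -0.80 in ICC-MY, while over all genes it was -0.04 and -0.02. Both comparisons use the same 2 tissue arrays. The test was limma's moderated test with Benjamini-Hochberg adjustment over all 18193 genes, and every p below is adjusted in this way unless said otherwise.

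**Figure D1:**
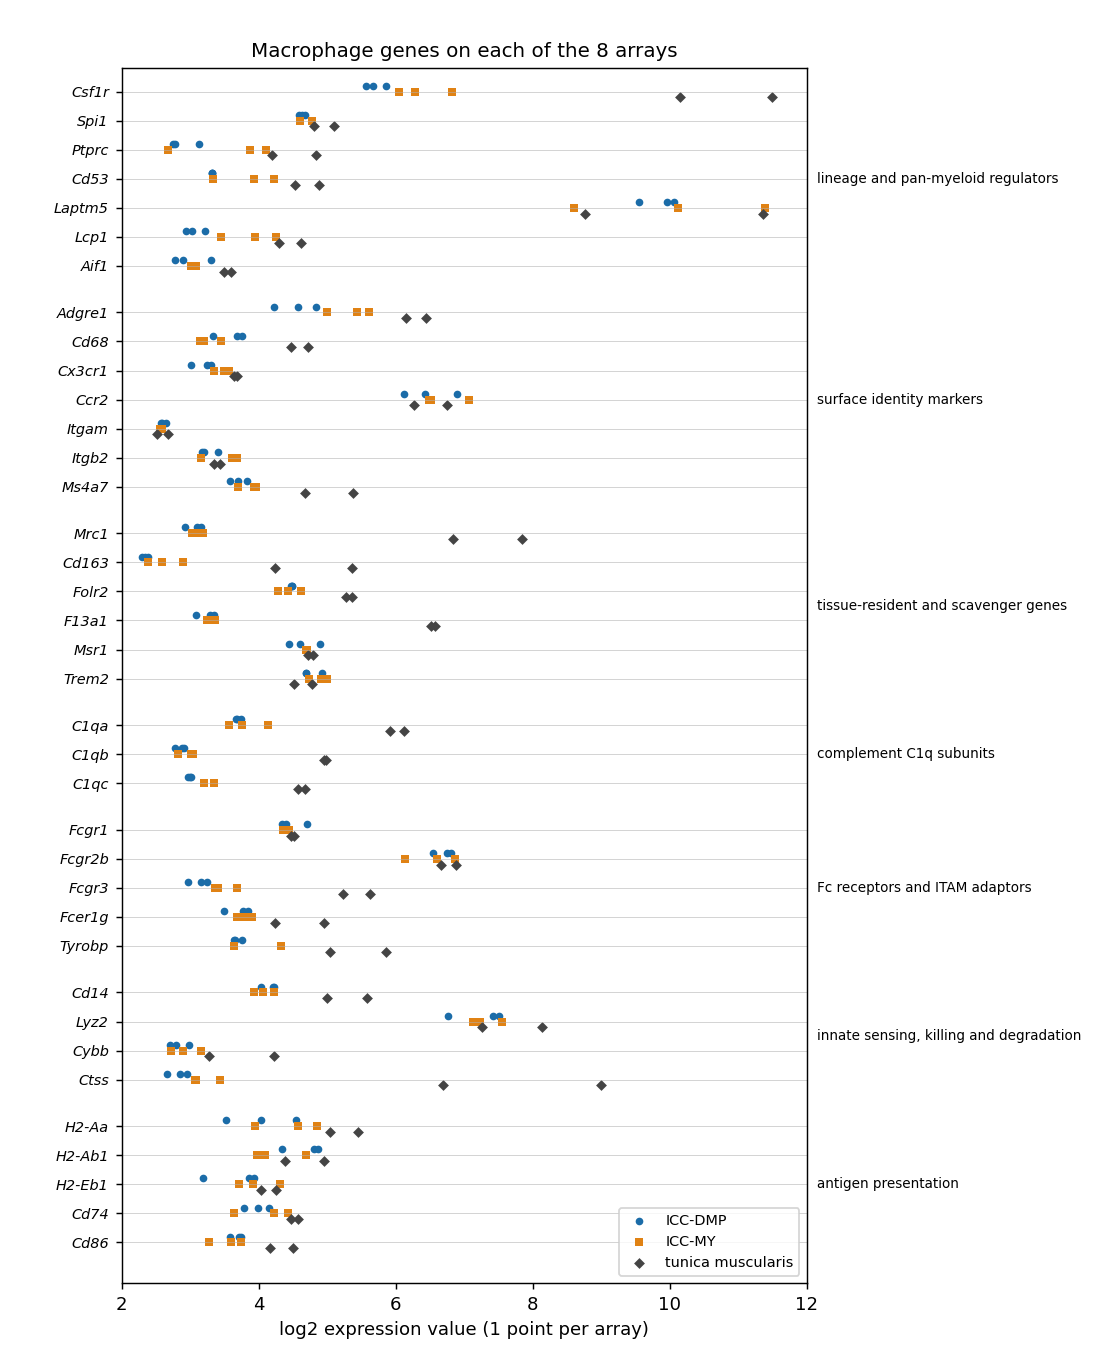
The log2 expression value of each of the 37 macrophage genes (rows, grouped by role) on each array, with circles for ICC-DMP (3), squares for ICC-MY (3) and diamonds for tunica muscularis (2). For Csf1r, Mrc1, F13a1, Ctss and the C1q genes the diamonds stand apart to the right, while for Itgam, Trem2 and Ccr2 the 3 groups overlap.

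A total of 15 members were lower in both classes: Csf1r, Adgre1, Cd68, Ms4a7, Mrc1, Cd163, Folr2, F13a1, C1qa, C1qb, C1qc, Fcgr3, Tyrobp, Cd14 and Ctss. Another 4 passed in ICC-DMP (Ptprc, Cd53, Lcp1 and Fcer1g) and 1 in ICC-MY (Cd86), and the difference between the classes did not pass for any of these 5, although that of Lcp1 did with the replicate number as a block (adjusted p = 0.0108). The remaining 17 passed in neither. By 2-fold or more, 17 members were lower in ICC-DMP (5.54% of all genes) and 13 in ICC-MY (7.67% of all genes). Every array of the class lay below both tissue arrays for 27 members in ICC-DMP (23.1% of all genes) and for 28 in ICC-MY (20.7% of all genes).

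**Figure D2:**
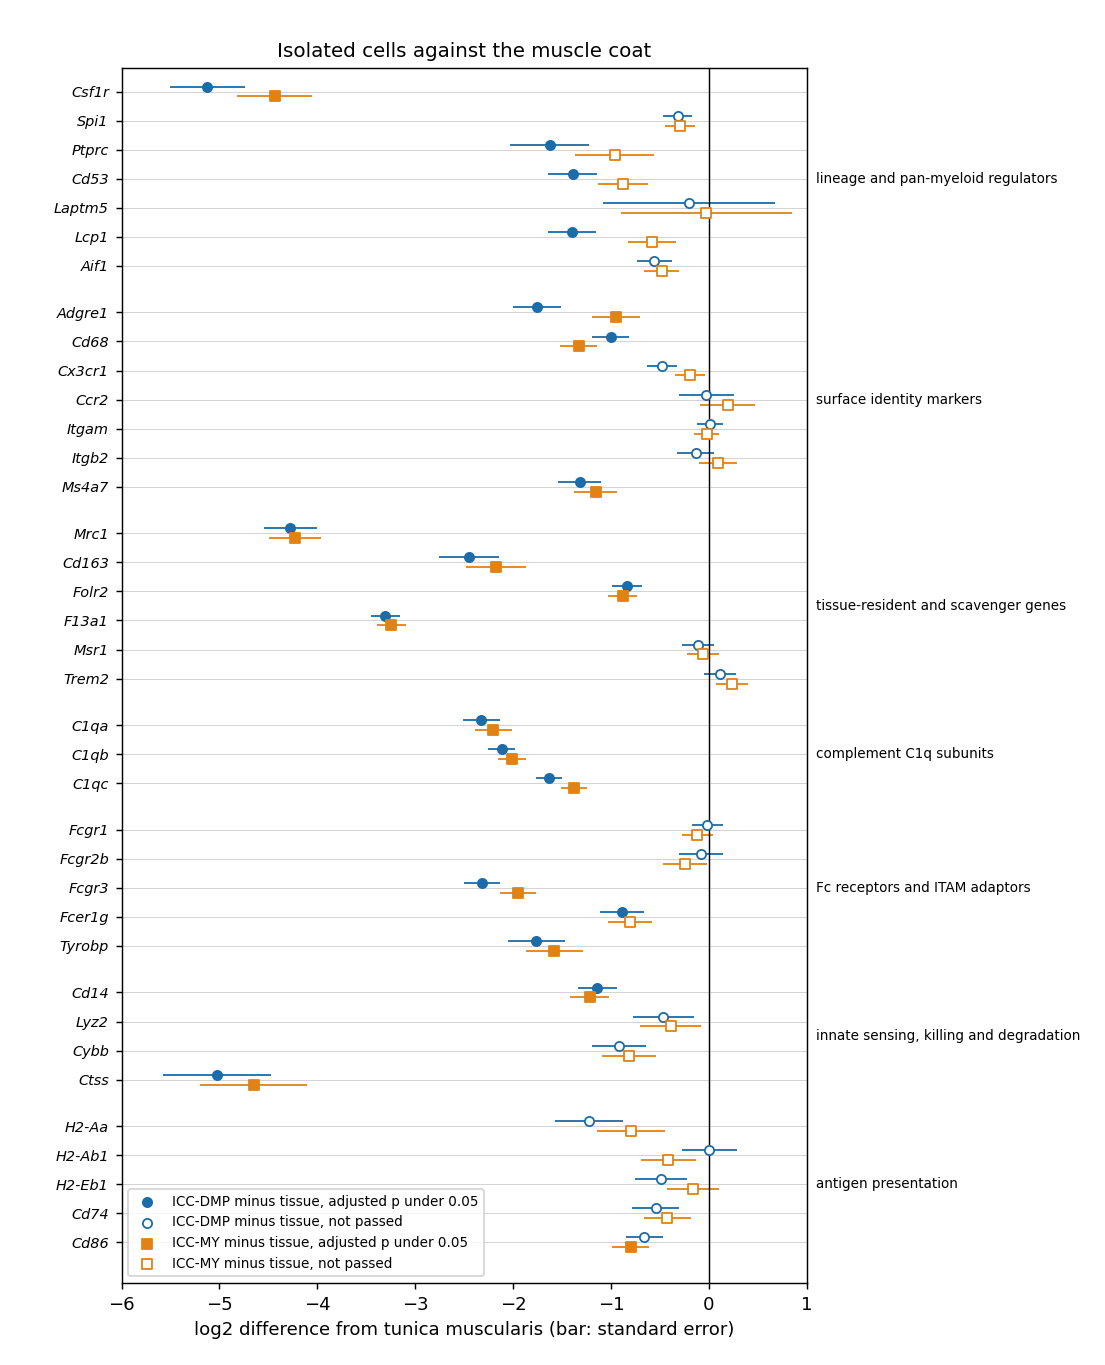
The log2 difference from tunica muscularis of each macrophage gene, with its standard error as a bar, for ICC-DMP (circles) and ICC-MY (squares); filled points passed at an adjusted p under 0.05. Filled points run from -0.80 to -5.12, and no filled point lies to the right of 0.

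Among the genes of the macrophage lineage and the pan-myeloid regulators, Csf1r stood far below tissue in both classes. It encodes the receptor for CSF1 and IL34 that macrophages need for survival. Csf1r read 5.57, 5.85 and 5.67 in ICC-DMP, 6.83, 6.04 and 6.28 in ICC-MY, and 10.15 and 11.49 in the muscle coat. The groups of isolated cells did not overlap with tissue, and the lowest ICC-MY array lay above the highest ICC-DMP array. In ICC-DMP it was 34.9-fold lower (log2 difference -5.12, SE 0.38, adjusted p = 7.21e-05), and in ICC-MY 21.7-fold lower (-4.44, SE 0.38, adjusted p = 0.000143). These values are those of the chosen probe set. On the other probe sets of Csf1r the classes overlapped, with ICC-DMP minus ICC-MY at -0.16 and 0.04 (limma, adjusted p = 0.861 and 0.940). Spi1 encodes PU.1, the transcription factor that sets the macrophage programme, and differed by only -0.32 (SE 0.15) and -0.29 (SE 0.15), which did not pass (adjusted p = 0.282 and 0.298).

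The other genes of this group encode proteins found on or in leukocytes generally. Ptprc, which encodes the leukocyte antigen CD45, read 2.75, 3.13 and 2.79 in ICC-DMP, 3.87, 4.11 and 2.68 in ICC-MY, and 4.2 and 4.83 in tissue. Cd53, a tetraspanin gene of leukocytes, read 3.31 on each of the 3 ICC-DMP arrays, 4.22, 3.93 and 3.33 in ICC-MY, and 4.53 and 4.88 in tissue. Lcp1, which encodes the leukocyte actin-bundling protein L-plastin, read 3.22, 2.94 and 3.03 in ICC-DMP, 4.26, 3.95 and 3.45 in ICC-MY, and 4.63 and 4.30 in tissue. In all 3 genes ICC-DMP was low on each of its arrays, and ICC-MY 1 and 2 lay closer to tissue than ICC-MY 3 did.

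Against tissue, ICC-DMP had lower values of all 3, Ptprc by a log2 difference of -1.63 (SE 0.41, adjusted p = 0.0383), Cd53 by -1.39 (SE 0.25, adjusted p = 0.00921) and Lcp1 by -1.40 (SE 0.24, adjusted p = 0.00739). In ICC-MY they did not pass, with differences of -0.96, -0.88 and -0.58 (adjusted p = 0.188, 0.0565 and 0.187). Single arrays decided some of these calls. Ptprc in ICC-DMP no longer passed when any 1 of the 3 ICC-DMP or 2 tissue arrays was left out (adjusted p from 0.0609 to 0.181). Cd53 in ICC-DMP was lost without tunica muscularis 2 (adjusted p = 0.0587), and Lcp1 in ICC-DMP without tunica muscularis 1 (adjusted p = 0.0501). Cd53 in ICC-MY passed without ICC-MY 1 (-1.08, adjusted p = 0.0156). Aif1, the gene for the macrophage protein IBA1, differed by -0.56 and -0.48 and did not pass (adjusted p = 0.0978 and 0.134). It passed in ICC-DMP without its replicate 2 (adjusted p = 0.0448) and in both classes with a trend in the prior variance (adjusted p = 0.0270 and 0.0487).

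Laptm5, a lysosomal membrane protein gene of haematopoietic cells, depended on the probe set. The one chosen by the rule read 10.07, 9.55 and 9.96 in ICC-DMP, 11.39, 8.61 and 10.12 in ICC-MY, and 11.36 and 8.77 in tissue, with wide spread inside groups, and did not pass (-0.20 and -0.03). Another probe set of Laptm5 read 2.33, 2.57 and 2.32 in ICC-DMP, 5.64, 5.71 and 3.06 in ICC-MY, and 6.86 and 7.85 in tissue. On that probe set Laptm5 was lower in ICC-DMP by -4.95 (SE 0.73, adjusted p = 0.00309 over all 34945 probe sets) and differed by -2.55 in ICC-MY (SE 0.73, adjusted p = 0.0589). This probe set, picked after its values were seen, followed the order of Ptprc, Cd53 and Lcp1, with ICC-MY 1 and 2 well above ICC-MY 3. The remaining Laptm5 probe sets differed by -0.43, -0.38 and -0.33 in ICC-DMP and did not pass (limma, adjusted p from 0.112 to 0.318). In ICC-MY 1, 2 and 3 they read 5.36, 5.30 and 5.01, then 5.25, 5.12 and 5.26, then 2.69, 2.55 and 2.54.

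Because PU.1 binds DNA around a purine-rich core, the letters GAGGAA, which hold the GGAA core shared by all ETS factors, were counted on both strands in the 250 bases before each RefSeq gene start (assembly GRCm38.p6). Of the 37 members, 26 had such a window, and 14 of these 26 (53.8%) held the letters, against 25.9% of 27025 genes with a window. Counted by windows instead of genes, the shares were 46.9% of 32 and 23.3% of 32851. Among members lower in either ICC class 9 of 14 held them, and among the others 5 of 12. A match is a description of the letters, not evidence of binding. The windows of 5 strongly lowered members are printed below beside their values, 5′ to 3′ on the strand of the gene, with GAGGAA, or its reverse complement TTCCTC, in capitals. All 5 hold the letters, whereas those of Cd163 and Lcp1, lowered as well, held 0 and are not printed.

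Of 7 surface identity markers, 3 were lower in both classes. Adgre1, which encodes the macrophage antigen F4/80, read 4.23, 4.58 and 4.83 in ICC-DMP, 5.44, 5.0 and 5.61 in ICC-MY, and 6.45 and 6.15 in tissue. The 3 groups formed steps without overlap, with ICC-DMP lowest. It was lower by -1.75 in ICC-DMP (SE 0.24, adjusted p = 0.00222) and by -0.95 in ICC-MY (SE 0.24, adjusted p = 0.0353). The second call was lost without ICC-DMP 2, ICC-MY 2, tunica muscularis 1 or tunica muscularis 2 (adjusted p from 0.0685 to 0.163).

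Cd68, an endosomal glycoprotein gene of phagocytes, was lower by -1.0 in ICC-DMP (SE 0.19, adjusted p = 0.0106, but 0.0631 without tunica muscularis 2) and by -1.33 in ICC-MY (SE 0.19, adjusted p = 0.00196). Ms4a7, a tetraspan membrane gene of resident macrophages, was lower by -1.32 and -1.16 (SE 0.22 in each). Neither gene overlapped with tissue on any array. Cx3cr1, the fractalkine receptor gene, lay between 3.01 and 3.68 on all arrays and did not pass (-0.48 and -0.19). With a trend in the prior variance it passed in ICC-DMP (adjusted p = 0.0429). Ccr2, the receptor gene of recruited monocytes, differed by -0.03 and 0.19, with overlapping groups. Itgam (0.01 and -0.02) and its partner chain Itgb2 (-0.13 and 0.09) did not differ beyond their spread.

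The tissue-resident and scavenger genes held some of the widest gaps. Mrc1 encodes the mannose receptor CD206, which takes up glycoproteins. Mrc1 read 3.11, 3.16 and 2.93 in ICC-DMP, 3.11, 3.04 and 3.19 in ICC-MY, and 6.84 and 7.84 in tissue. It was 19.4-fold lower in ICC-DMP (-4.28, SE 0.27, adjusted p = 2.9e-05) and 18.8-fold lower in ICC-MY (-4.23, SE 0.27, adjusted p = 2.8e-05). Both ICC classes sat at about the lower quartile of their arrays, where a fold may understate the gap. The folds also carry the spread of the 2 tissue arrays. No gap lay between the classes.

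F13a1 encodes the A subunit of coagulation factor XIII, a transglutaminase of resident macrophages. Its values were 3.09, 3.35 and 3.28 in ICC-DMP, 3.25, 3.37 and 3.29 in ICC-MY, and 6.51 and 6.58 in tissue. The 2 tissue arrays lay 0.062 apart and far above every array of isolated cells. F13a1 was lower by -3.30 and -3.24 (SE 0.14 in each, adjusted p = 6.53e-06 and 5.49e-06). Cd163, the haemoglobin scavenger receptor gene, read 2.35, 2.38 and 2.30 in ICC-DMP, 2.90, 2.59 and 2.38 in ICC-MY, and 4.24 and 5.36 in tissue. It was lower by -2.45 and -2.17 (SE 0.31 in each). No array of isolated cells reached tissue for any of these 3 genes.

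The remaining scavenger genes changed less. Folr2, the folate receptor beta gene of resident macrophages, was lower by -0.83 in ICC-DMP and -0.88 in ICC-MY (SE 0.15 in each), with ICC values from 4.28 to 4.62 and tissue at 5.28 and 5.37. Msr1, the scavenger receptor A gene, and Trem2, a lipid-sensing receptor gene, did not pass (Msr1 -0.11 and -0.06, Trem2 0.12 and 0.24), and their groups lay within 1 unit of each other. The windows of Mrc1 (chr2:14229164-14229413, plus strand) and F13a1 (chr13:37050245-37050494, minus strand, 1 of its 2 gene starts) are shown because these genes had the 2 largest differences of the role. That of Mrc1 held 3 copies of the letters and that of F13a1 held 1, while the window of the other F13a1 start (chr13:37049214-37049463, minus strand) held 0.
Mrc1: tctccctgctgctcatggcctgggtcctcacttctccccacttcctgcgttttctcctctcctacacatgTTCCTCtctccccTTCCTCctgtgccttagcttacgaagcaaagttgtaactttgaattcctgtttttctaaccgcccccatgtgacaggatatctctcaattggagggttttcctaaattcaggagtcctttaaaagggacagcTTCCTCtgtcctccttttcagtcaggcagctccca
F13a1: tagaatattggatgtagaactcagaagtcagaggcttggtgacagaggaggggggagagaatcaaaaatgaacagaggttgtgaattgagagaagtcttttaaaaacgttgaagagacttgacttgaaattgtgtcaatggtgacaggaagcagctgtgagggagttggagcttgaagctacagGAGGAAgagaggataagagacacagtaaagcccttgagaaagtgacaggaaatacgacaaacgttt

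C1q opens the classical complement pathway, and its A, B and C chains come mainly from macrophages in most tissues. All 3 genes were lower in both classes. C1qa read 3.67, 3.68 and 3.75 in ICC-DMP, 4.14, 3.57 and 3.76 in ICC-MY, and 5.91 and 6.13 in tissue. C1qb read 2.79, 2.91 and 2.88 in ICC-DMP, 3.02, 2.82 and 3.04 in ICC-MY, and 4.99 and 4.96 in tissue. C1qc read 2.97, 3.01 and 2.99 in ICC-DMP, 3.20, 3.35 and 3.20 in ICC-MY, and 4.67 and 4.58 in tissue. Arrays within a group agreed closely for each chain, and no array of isolated cells came within 1 unit of tissue.

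The differences in ICC-DMP were -2.32 for C1qa (SE 0.19), -2.12 for C1qb (SE 0.14) and -1.63 for C1qc (SE 0.13), with adjusted p = 0.000123, 3.98e-05 and 0.000131. In ICC-MY they were -2.20, -2.01 and -1.37 with the same standard errors, and adjusted p = 0.000146, 4.52e-05 and 0.000291. The 3 chains thus moved together in both classes. C1qb had 2 further probe sets, and both passed in both classes. One of them gave a wider gap for C1qb of -3.90 in ICC-DMP and -3.66 in ICC-MY. The C1qb and C1qc starts lie close together on chromosome 4, and both windows held the letters counted above, C1qb at chr4:136886201-136886450 and C1qc at chr4:136892915-136893164, both on the minus strand. They are shown as neighbours that moved together. C1qa had no window here.
C1qb: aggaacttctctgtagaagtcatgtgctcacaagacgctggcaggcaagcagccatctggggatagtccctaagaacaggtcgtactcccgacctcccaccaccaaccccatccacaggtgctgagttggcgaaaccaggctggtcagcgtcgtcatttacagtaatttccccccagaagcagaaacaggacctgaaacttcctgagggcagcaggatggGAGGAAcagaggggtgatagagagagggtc
C1qc: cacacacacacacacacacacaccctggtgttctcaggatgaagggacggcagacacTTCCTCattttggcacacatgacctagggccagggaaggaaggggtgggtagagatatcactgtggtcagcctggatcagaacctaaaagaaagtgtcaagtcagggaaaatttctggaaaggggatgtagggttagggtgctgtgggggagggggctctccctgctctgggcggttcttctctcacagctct

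Fc receptors bind antibody, and the adaptors FcRγ and DAP12 carry the signal of these and related receptors. Fcgr3 encodes a low-affinity receptor for IgG. It read 3.15, 3.24 and 2.97 in ICC-DMP, 3.68, 3.36 and 3.41 in ICC-MY, and 5.63 and 5.24 in tissue, and was lower by -2.31 and -1.95 (SE 0.18 in each, adjusted p = 0.000107 and 0.000241). Tyrobp, the DAP12 gene, read 3.65, 3.64 and 3.76 in ICC-DMP, 4.33, 3.64 and 3.64 in ICC-MY, and 5.04 and 5.86 in tissue, and was lower by -1.76 and -1.58 (SE 0.29 in each, adjusted p = 0.00553 and 0.00772). Both genes stayed below tissue on every array of isolated cells, and ICC-MY 1 was the highest of the ICC-MY arrays in each.

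Fcer1g, which encodes FcRγ, was close to the threshold. It was lower in ICC-DMP by -0.89 (SE 0.23, adjusted p = 0.0404) and differed in ICC-MY by -0.80 (SE 0.23, adjusted p = 0.0512, but 0.0400 with the replicate number as a block). The ICC-DMP call was lost without any 1 of ICC-DMP 1, 2 or 3, ICC-MY 2 or 3, or tunica muscularis 1 (adjusted p from 0.0612 to 0.205), and the ICC-MY difference passed without tunica muscularis 2 (adjusted p = 0.0127). Fcgr1, the high-affinity receptor gene, did not pass (-0.02 and -0.12). Nor did its other probe set (-0.81 and -0.76, limma, adjusted p = 0.0547 and 0.0658 over all probe sets). Neither did Fcgr2b, the inhibitory receptor gene, on the probe set chosen by the rule (-0.08 and -0.24). Another of its probe sets did pass, with Fcgr2b lower by -2.10 in ICC-DMP and -1.86 in ICC-MY (SE 0.23 in each, adjusted p = 0.000683 and 0.00122 over all probe sets).

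Of the genes for innate sensing, killing and degradation, Ctss and Cd14 were lower in both classes. Ctss encodes cathepsin S, the protease that trims the class II invariant chain. Ctss read 2.66, 2.85 and 2.96 in ICC-DMP, 3.08, 3.43 and 3.09 in ICC-MY, and 6.70 and 9.00 in tissue. Its gap was among the largest of the set although its 2 tissue arrays lay 2.31 apart. It was 32.5-fold lower in ICC-DMP (-5.02, SE 0.55, adjusted p = 0.000619) and 25.1-fold lower in ICC-MY (-4.65, SE 0.55, adjusted p = 0.000752). Ctss lay below the lower quartile on every ICC-DMP array and near it in ICC-MY, where a fold may understate the gap. The folds also carry the spread of the 2 tissue arrays. Its window (chr3:95526536-95526785, plus strand) held 1 copy of the letters.
Ctss: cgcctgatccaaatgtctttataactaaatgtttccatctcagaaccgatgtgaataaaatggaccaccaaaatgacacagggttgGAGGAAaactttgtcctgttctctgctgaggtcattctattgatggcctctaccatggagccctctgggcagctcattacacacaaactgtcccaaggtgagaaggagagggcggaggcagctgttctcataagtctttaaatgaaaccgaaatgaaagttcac

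Cd14, the co-receptor gene for lipopolysaccharide, was lower by -1.14 and -1.22 (SE 0.20 in each), with ICC values from 3.94 to 4.22 and tissue at 5.0 and 5.58. Lyz2, the lysozyme gene, overlapped between groups at 6.77 to 8.13 and did not pass (-0.47 and -0.39). Cybb, which encodes the catalytic subunit of the phagocyte NADPH oxidase, differed by -0.92 and -0.82 (SE 0.27) without passing (adjusted p = 0.0744 and 0.0957). Its tissue arrays read 3.27 and 4.22, and without tunica muscularis 1 Cybb passed in both classes (adjusted p = 0.00820 and 0.00900).

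Antigen presentation had the fewest calls of the roles over both comparisons, 1 of 5 genes in ICC-MY and 0 in ICC-DMP. Cd86, a co-stimulatory ligand gene, was lower in ICC-MY by -0.80 (SE 0.19, adjusted p = 0.0242), and this was lost without ICC-DMP 1, ICC-MY 3 or tunica muscularis 2 (adjusted p = 0.0509, 0.0559 and 0.143). In ICC-DMP it differed by -0.66 (adjusted p = 0.0626, but 0.0450 with the replicate number as a block and 0.0328 when ICC-MY 1 was left out). H2-Aa, the class II alpha chain gene, differed by -1.22 in ICC-DMP (SE 0.35, adjusted p = 0.0641) and passed with the block (-1.09, adjusted p = 0.0182) and when ICC-DMP 2 was left out (adjusted p = 0.0469). Another of its probe sets passed in ICC-DMP (H2-Aa -1.25, adjusted p = 0.0102).

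The class II beta chain genes H2-Ab1 (0.00 and -0.41) and H2-Eb1 (-0.48 and -0.16) did not pass, nor did Cd74, the invariant chain gene (-0.54 and -0.42). Tissue read 4.39 and 4.95 for H2-Ab1, 4.03 and 4.26 for H2-Eb1, and 4.47 and 4.57 for Cd74, with ICC arrays from 3.19 to 4.87 across these 3 genes. H2-Aa read 5.05 and 5.46 in tissue and 3.52 to 4.85 in the ICC arrays, which lay below both. The Y box core of class II promoters, GATTGG on either strand (an inverted CCAAT box), was in both class II windows on hand, those of H2-Aa and H2-Eb1, against 16.6% of all genes with a window. Outside class II, Cd53, Cd68, Cd163 and Trem2 held it too, so that 6 of 26 members with a window did (23.1%).

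Choice of probe set mattered for several members. More than 1 probe set was found for 17 of the 37. Where the chosen one passed and others existed, a further one passed with the same sign for 2 of 6 members in ICC-DMP and for 2 of 4 in ICC-MY, namely Csf1r and C1qb, and 0 passed with the opposite sign. The other 2 probe sets of Csf1r gave -3.13 and -1.0 in ICC-DMP, against -5.12 for the chosen one. Conversely, Laptm5, Fcgr2b and H2-Aa in ICC-DMP, and Msr1 and Fcgr2b in ICC-MY, did not pass with the chosen probe set while another did.

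**Figure D3:**
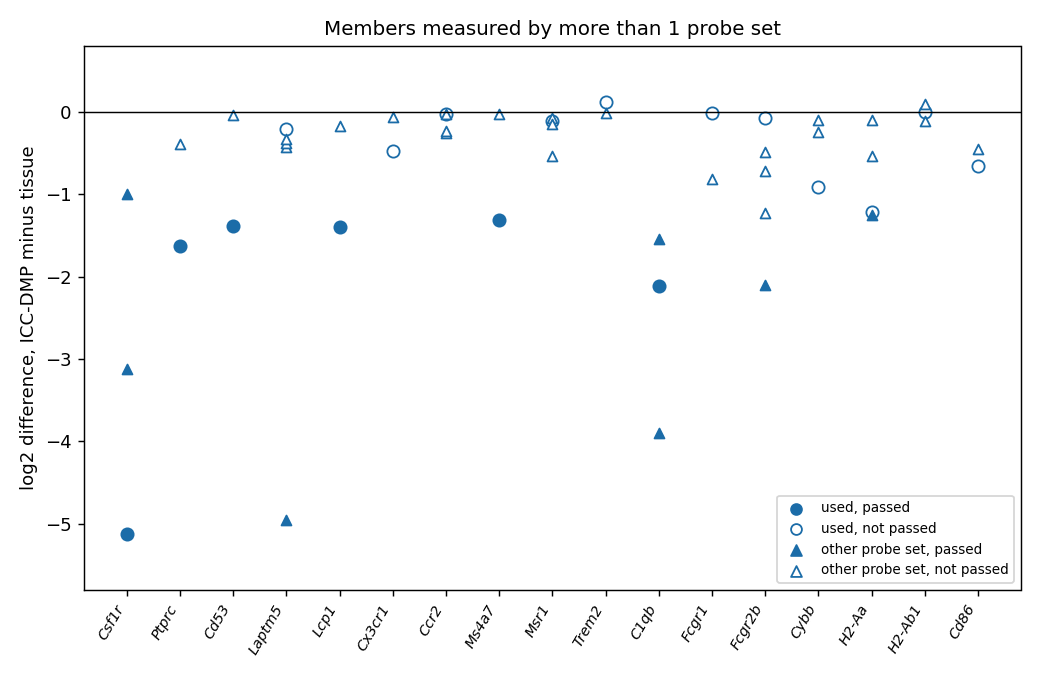
The log2 difference between ICC-DMP and tunica muscularis for each probe set of the 17 macrophage genes with more than 1, with circles for the probe set used and triangles for the others; filled symbols passed. Laptm5 and Fcgr2b carry a filled triangle at -4.95 and -2.10 while their circles lie near 0.

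Comparing the classes with each other asks whether one carried more macrophage transcript than the other. At an adjusted p under 0.05, 0 of the 37 members differed between ICC-DMP and ICC-MY by limma, against 8.67% of all genes. At an unadjusted p under 0.05, 2 were lower in ICC-DMP (7.66% of all genes), Adgre1 and Lcp1, and 0 were higher (10.8% of all genes). At an adjusted p under 0.05 and a 2-fold difference, 0 members were lower in ICC-DMP, against 2.4% of all genes. The median over the members was -0.12, beside -0.02 over all genes, and 29 of 37 were below 0, beside 53% of all genes. All ICC-DMP arrays lay below all ICC-MY arrays for 8 members (11.7% of all genes), and for 0 the other way (13.9% of all genes). The 8 were Csf1r, Cd53, Lcp1, Adgre1, Cx3cr1, C1qc, Fcgr3 and Ctss. For Csf1r, Cd53, Lcp1 and Cx3cr1 this held on the chosen probe set and on no other.

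Lcp1 was nearest to passing (-0.82, SE 0.22, adjusted p = 0.0591), followed by Adgre1 (-0.80, SE 0.22, adjusted p = 0.0638). With the replicate number as a block both passed (adjusted p = 0.0108 for Lcp1 and 0.0164 for Adgre1), so the count rose from 0 to 2. Without ICC-MY 3, Lcp1 (-1.04, adjusted p = 0.0167), Ptprc (-1.10, adjusted p = 0.0360) and Cd53 (-0.76, adjusted p = 0.0457) passed, and without ICC-MY 2, Adgre1 did (-0.98, adjusted p = 0.0406). With all arrays, Ptprc differed by -0.66 (adjusted p = 0.417) and Cd53 by -0.51 (adjusted p = 0.282). Csf1r differed by -0.69 (SE 0.34, adjusted p = 0.353). The largest difference in the other direction was that of H2-Ab1, at 0.42 (SE 0.25, adjusted p = 0.474).

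**Figure D4:**
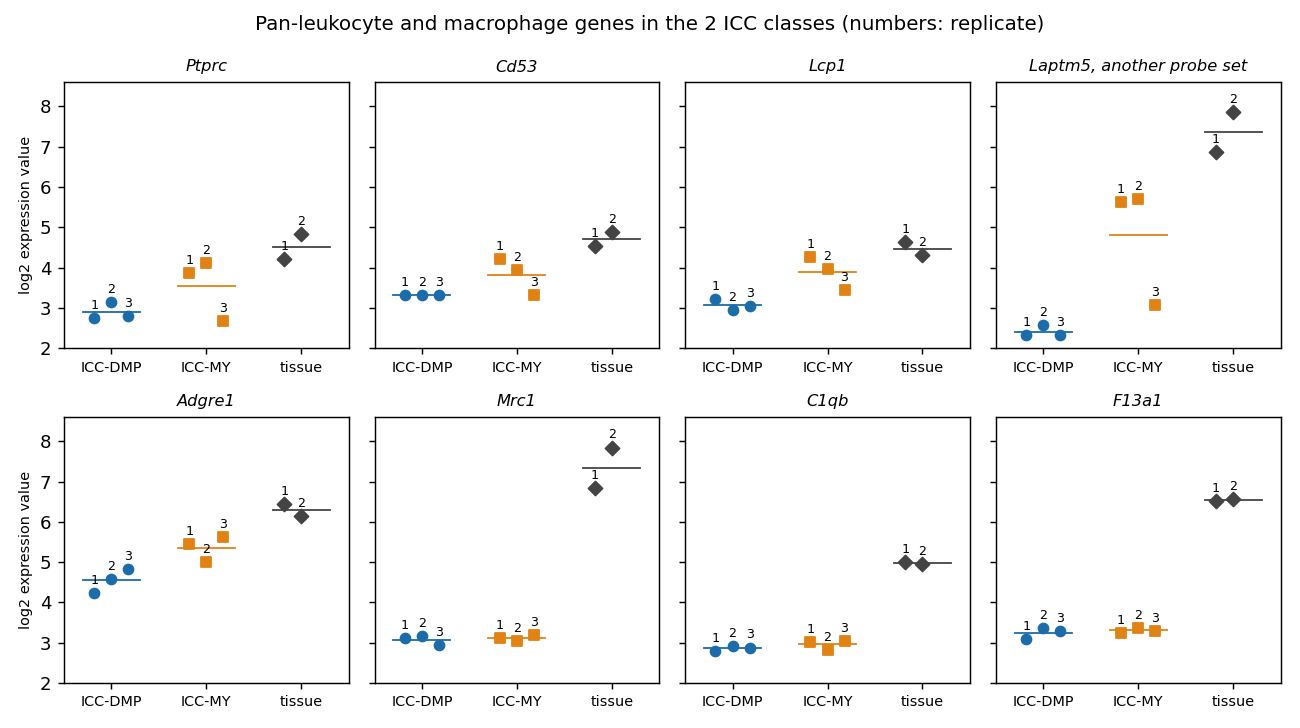
Log2 expression values by replicate (numbered points, with the group mean as a line) for 8 measurements of macrophage and pan-leukocyte genes in ICC-DMP, ICC-MY and tunica muscularis. In the upper row, Ptprc, Cd53, Lcp1 and a Laptm5 probe set picked after its values were seen, ICC-MY 1 and 2 lie above ICC-MY 3. In the lower row, Mrc1, C1qb and F13a1 lie at one low level in both classes, and Adgre1 forms 3 steps.

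For Ptprc, Cd53, Lcp1 and the picked Laptm5 probe set the arrays ICC-MY 1 and 2 stood above ICC-MY 3. The 3 ICC-MY arrays lay close together for Mrc1 (3.04 to 3.19), F13a1 (3.25 to 3.37) and C1qb (2.82 to 3.04). A few genes of the other lists had ICC-MY 1 and 2 above ICC-MY 3 as well. Of 7 mast cell markers, 1 was lower in ICC-DMP than in ICC-MY at an unadjusted p under 0.05, the protease gene Cpa3, which read 4.31, 4.51 and 3.49 in ICC-MY and 3.23 to 3.35 in ICC-DMP (adjusted p = 0.114, but 0.0296 with the block). The other mast cell markers differed by -0.39 to 0.12 (median of all 7 -0.11). Of 5 endothelial markers 2 were lower in the same way, the receptor gene Kdr (6.53, 7.0 and 5.41 in ICC-MY, adjusted p = 0.0785, but 0.0180 with the block) and the cadherin gene Cdh5 (5.19, 5.38 and 4.17, adjusted p = 0.0321). The call of Cdh5 was lost without any 1 of the ICC-DMP arrays, ICC-MY 1 or ICC-MY 2 (adjusted p from 0.0711 to 0.137). Csf2, a growth factor gene and no cell type marker, read 6.52, 6.31 and 4.11 in ICC-MY and 3.69 to 3.91 in ICC-DMP (adjusted p = 0.0909, but 0.0143 with the block). Their part in the pattern of the members was not tested.

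Lists of further macrophage and leukocyte genes put the 37 in context. Of 28 other macrophage identity genes, 6 were lower in ICC-DMP and 6 in ICC-MY, with 1, Axl, higher in ICC-MY (medians -0.28 and -0.29). The platelet factor gene Pf4, which macrophages express, was lower by -4.44 and -3.49 (SE 0.24 in each), and the membrane gene Ms4a6d by -3.04 and -2.72 (SE 0.17 in each). Pf4 read 4.35, 4.37 and 4.17 in ICC-DMP, 4.80, 5.34 and 5.59 in ICC-MY, and 8.93 and 8.55 in tissue, and it was also lower in ICC-DMP than in ICC-MY (-0.94, SE 0.22, adjusted p = 0.0309). That last call was lost without any 1 of the ICC-DMP arrays, ICC-MY 2 or ICC-MY 3 (adjusted p from 0.0951 to 0.118), and the call of Axl without ICC-MY 2, ICC-MY 3 or tunica muscularis 1 (adjusted p from 0.0582 to 0.119).

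In the same list 3 more genes differed between the classes. Maf, a transcription factor gene of resident macrophages and other cells, read 8.69, 8.35 and 8.78 in ICC-DMP, 5.62, 5.25 and 5.74 in ICC-MY, and 7.74 and 9.16 in tissue. ICC-MY lay below both other groups, with a difference of -2.92 from tissue (SE 0.38), and ICC-DMP minus ICC-MY was 3.07 (SE 0.34). Irf8, a myeloid transcription factor gene, was higher in ICC-DMP than in ICC-MY by 2.28 (SE 0.33), and Lyve1, a hyaluronan receptor gene of macrophages and lymphatic vessels, was lower by -1.14 (SE 0.17). These genes are not members and ran in opposite directions.

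Among the growth factors and niche signals, Csf1 (0.62 and 0.23) and Il34 (-0.14 and -0.10), the ligands of the Csf1r receptor, did not pass. Gas6, a bridging ligand for the uptake of dying cells, was lower in ICC-DMP (-2.19, SE 0.37), also against ICC-MY (-1.45, SE 0.33, adjusted p = 0.0309), and Bmp2, a macrophage signal to enteric neurons, was lower in ICC-MY (-1.79, SE 0.41). With the block Gas6 also passed in ICC-MY (-0.67, adjusted p = 0.0440). The difference of Gas6 between the classes was lost without any 1 of the ICC-DMP arrays, ICC-MY 2 or ICC-MY 3 (adjusted p from 0.0641 to 0.131), and that of Bmp2 from tissue without ICC-MY 3 or tunica muscularis 2 (adjusted p = 0.0711 and 0.121). Of 18 genes of myeloid signalling and cytoskeleton, 3 were lower in each class. Among them were Coro1a, a leukocyte actin regulator gene (-1.88 and -1.65), and the kinase gene Syk (-0.97 and -0.81). Syk no longer passed in ICC-DMP without any 1 of its arrays or tunica muscularis 1 (adjusted p from 0.0682 to 0.123), nor in ICC-MY without any 1 of the ICC-DMP arrays, ICC-MY 2 or 3, or tunica muscularis 1 (adjusted p from 0.0750 to 0.213). Of 14 lysosomal genes, 0 passed in ICC-DMP by limma (1 at an unadjusted p under 0.05, Ctsh, which passed with the block at an adjusted p of 0.0348, and without tunica muscularis 1 at 0.000760) and 3 were lower in ICC-MY, namely the protease genes Ctsh (-2.94), Lgmn (-2.75) and Ctsc (-0.92). Lgmn was lost without ICC-MY 1, ICC-MY 3 or tunica muscularis 2 (adjusted p from 0.0598 to 0.188), and Ctsc without ICC-DMP 1 or 2, ICC-MY 1 or 2, or tunica muscularis 2 (adjusted p from 0.0512 to 0.158).

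Innate receptors, cytokines and chemokines moved in both directions. Tlr4, the lipopolysaccharide receptor gene, was lower by -2.26 and -1.46, and the chemokine gene Ccl9 by -2.44 and -1.92. Tnfaip2, a gene induced by tumour necrosis factor, was higher by 1.96 and 4.33. Il6 (3.89), Cxcl2 (2.42) and Cxcl16 (2.07), a cytokine gene and a pair of chemokine genes, were higher in ICC-MY. In ICC-DMP these 3 differed by 0.96, 1.22 and 0.74 and did not pass, but with the block they did (1.45, 1.57 and 0.83, adjusted p = 0.00384, 0.00432 and 0.0398). Without tunica muscularis 2, Tlr4 and Cxcl2 no longer passed in ICC-MY (adjusted p = 0.0520 and 0.0507). In ICC-DMP, Cxcl2 passed without ICC-MY 3 and Cxcl16 without tunica muscularis 1 (adjusted p = 0.0181 and 0.0412). The direct test between the classes passed for Il6 (-2.93, SE 0.52), Tnfaip2 (-2.37, SE 0.24) and Cxcl16 (-1.33, SE 0.20), each lower in ICC-DMP. With the block it also passed for Cxcl2 (-1.20, adjusted p = 0.00792), Tlr4 (-0.80, adjusted p = 0.0203) and Ccl9 (-0.53, adjusted p = 0.0353).

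Of 10 complement genes outside C1q, 5 were lower and 1 higher in ICC-DMP, and 6 lower and 2 higher in ICC-MY (medians -1.44 and -1.93). Some of these calls were lost without single ICC arrays. In ICC-DMP they were those of Serping1 (limma, adjusted p from 0.0559 to 0.119) and Cfp, the higher gene (0.0694 and 0.0702). In ICC-MY it was that of C1s1 (adjusted p from 0.0528 to 0.0890). Between the classes 1 passed, Cd93, lower in ICC-DMP by -3.20. C2, a protease gene of the classical pathway, was lower by -4.03 and -3.75, C1ra, a protease gene of the C1 complex, by -2.11 and -3.05, and Cd55, a gene for a complement inhibitor on cell surfaces, by -2.68 and -2.37. By limma, 0 of 8 other genes of the class II pathway passed in either class, and 0 at an unadjusted p under 0.05. The most abundant of them, the transcription factor gene Rfx5, differed by 0.48 and -0.15.

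Markers of other leukocytes gave few calls. In both classes, 0 markers of mast cells (of 7), T cells (of 7), B cells (of 5) and dendritic cells (of 8) passed by limma. Over all genes 11% passed in ICC-DMP and 13.8% in ICC-MY, and each list is too short to tell 0 calls from these shares. In tissue the means of these lists lay between 3.64 and 4.38, near the array medians of 4.23 and 4.18. The means of the 37 members there were 5.25 and 5.48. At an unadjusted p under 0.05 there was 1 mast cell marker (Cma1, which passed with the block, adjusted p = 0.0386) and 1 dendritic cell marker in ICC-DMP and 0 in ICC-MY, and 0 T and B cell markers in either. The most abundant of each were Hdc, the histamine synthesis gene (-0.15 and 0.24), Cd8a, a T cell co-receptor gene (-0.39 and 0.32), Ighm, the IgM heavy chain gene (0.20 and 0.33), and Flt3, a growth factor receptor gene (-0.30 and 0.03). Of 8 neutrophil markers, 1 was lower in both classes, Camp, an antimicrobial peptide gene (-1.48 and -1.44). The medians of these lists lay between -0.23 and 0.18.

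**Figure D5:**
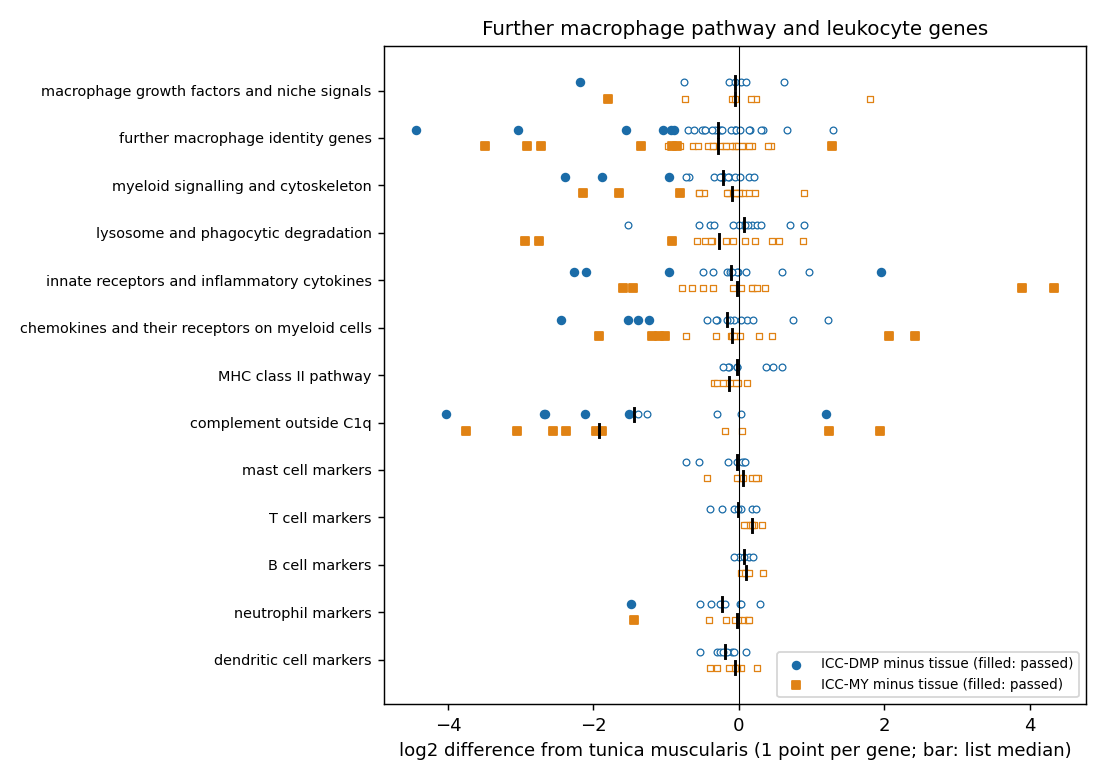
The log2 difference from tunica muscularis of each gene on 13 further lists, for ICC-DMP (circles) and ICC-MY (squares), filled where the gene passed; black bars are list medians. The bars of complement genes outside C1q lie at -1.44 and -1.93, while those of T cell, B cell, mast cell and dendritic cell markers lie near 0 with no filled points.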

How the data were processed

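The authors deposited a log2 value for each probe set on each array, and these were used unchanged. The submitters' processing notes name RMA and limma with no version or role, and the sources used here do not say whether all arrays were normalized together. Of 45101 probe sets, 64 controls, 932 naming several genes and 9160 not in the platform annotation were left out. That left 34945, and each of 18193 genes was read from its probe set with the highest mean. No value was filtered or rescaled.

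Group differences came from limma 3.58.1 under R 4.3.3, with lmFit, contrasts.fit and eBayes on all 8 arrays at once and 3 groups read from the sample titles. Residual degrees of freedom were 5 and prior degrees of freedom 3.17. Tests were 2-sided. An error after a log2 difference is its standard error. The number of arrays, above all the 2 of tissue, limits the precision. The script was tested on simulated data.

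The members, lists, motifs and tests were chosen with earlier results of these data known, so their counts stand beside those of all genes and no list was tested. Values on each array are given for the 14 members with the largest differences from tissue. Of each other list, up to 3 passing genes with the largest differences are named, or the most abundant one where none passed; 1 such gene is not reported here. Genes named beyond these were picked after their values were seen. They are Csf1, Il34, Csf2, Cpa3, Cma1, Cdh5, Des, Axl, Irf8, Lyve1, Serping1, Cfp, C1s1 and Cd93, with Laptm5 by another probe set.

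Replicate numbers in the titles were checked as pairs. Deviations from the group means correlated between same-numbered arrays over all genes in every one of 7 pairs (r from 0.155 to 0.608). Differently numbered pairs gave r from -0.608 to 0.169. Deviations sum to 0 within a group, so the pairs are not independent checks. The fit with the number as a block is given for every member whose call it changes. On the other lists it is given for some genes only. Alternatives were other scalings, probe-set rules, filters, variance models and leaving out each array. Promoter windows came from a RefSeq table and were searched with Python 3.11.15.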

Additional observations from a re-analysis of the deposited data

How the results depend on the processing

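Removing genes with a mean under 5 left 2 members called in ICC-DMP and 2 in ICC-MY, because only 6 of the 37 members were tested. Under the other settings ICC-DMP had 16 to 24 members called lower (16 to 20 leaving out 1 array) and ICC-MY 12 to 20 (15 to 17 leaving out 1 array). With the replicate block they were 21 and 17. In every setting where they were tested, 13 of the 19 ICC-DMP calls and 11 of the 16 ICC-MY calls were made. Between the ICC classes, where 0 members passed, 1 passed with the probe sets of a gene averaged, and 2 with quantile normalization, array weights, a trend in the prior variance or the replicate block. Leaving out 1 array gave 0 to 3. No value of a member reversed where it or its alternative was called. Of the members, the block changed no other call than those printed above. On the other lists it lost 0 calls and added 12 in ICC-DMP, 9 in ICC-MY and 14 between the classes.

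Over all genes, 1332 were lower in ICC-DMP (2090 with quantile normalization, 678 with the filter, 837 and 851 without ICC-DMP 1 and 2, 2160 without ICC-MY 1 and tunica muscularis 1), and 1780 in ICC-MY (1142 with the filter, 1134 with only the compared groups fitted). Between the classes 1577 differed (2557 with quantile normalization, 2646 with array weights, 2617 with the block, 991 and 996 without ICC-DMP 1 and 2, 2630 without ICC-MY 1 and tunica muscularis 1). Of the genes that differed between the classes, 38.1% were lower in ICC-DMP (49.9% after quantile normalization, 48.7% with array weights, 52.6% without ICC-MY 1 and 53.3% without ICC-MY 1 and tunica muscularis 1). Higher than tissue were 677 genes in ICC-DMP (1031 with quantile normalization, 427, 445 and 395 without ICC-DMP 1, ICC-DMP 2 and tunica muscularis 1) and 736 in ICC-MY (1432 with quantile normalization, 386 with only the compared groups fitted, 1255, 482 and 411 without ICC-MY 1, ICC-MY 2 and tunica muscularis 1). The causes of these shifts were not tested. Members near the lower quartile of the arrays are limited by signal over background, for which the files give no detection call.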
